A study of Mus musculus with 4 samples.

Results

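The genes described here encode the semaphorins, plexins, neuropilins, ephrins and Eph receptors, chosen as the protein-coding genes of GENCODE M21 (mouse build mm10) whose symbols begin with *Sema*, *Plxna* to *Plxnd*, *Epha*, *Ephb*, *Efna* or *Efnb* and a number, together with *Nrp1* and *Nrp2*. The rule found 53 of 21938 protein-coding genes: 20 semaphorins, 9 plexins, 2 neuropilins, 8 ephrins and 14 Eph receptors. Chromatin accessibility had been measured by ATAC-seq, in which a transposase cuts open DNA, in hearts of wild-type (WT) mouse embryos and of embryos with a conventional null *Smyd1* genotype (*Smyd1-KO*) at embryonic day 9.5. *Smyd1* encodes a histone methyltransferase of striated muscle, and the null allele is carried by every cell of the embryo. Each genotype had 2 libraries, and each library came from 4 pooled hearts, dissociated with trypsin, from which 40000 viable cells were taken. The cells were not sorted, so the libraries can hold myocardial, endocardial, epicardial, blood and neural crest derived cells, and a change in cell mixture and a change within one cell type cannot be told apart.

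The values analysed are 2 lists of peaks, one of 25745 regions whose tags were 2-fold or more above WT in *Smyd1-KO* hearts (gained peaks) and one of 106 regions with the opposite difference (WT-enriched peaks). The libraries of a genotype had been combined before the comparison, so no peak has a replicate error and no test over samples was possible. Gained regions outnumber the WT-enriched ones, 25745 to 106. A difference in depth or scaling between the 2 combined sets cannot be told apart here from a change in openness. Intervals given below are exact 95% binomial intervals over genes. They cover counting error only, and genes are not replicates of a genotype. The score of a peak is the deposited signal, a scaled number of tags in the combined *Smyd1-KO* libraries, and it measures openness in the mutant rather than the size of the change. A gene without a gained peak can be open and unchanged, or closed, in both genotypes, since the lists hold differential regions only. For the same reason, neither the loss of *Smyd1* nor the cell types of the tissue could be checked from these lists.

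Semaphorins are secreted or membrane-bound ligands that bind plexins, and the secreted class 3 semaphorins usually need a neuropilin as co-receptor. Ephrins are membrane-bound ligands of the Eph receptor tyrosine kinases, with signalling into both the Eph-bearing and the ephrin-bearing cell. Both systems act by repulsion or adhesion between neighbouring cells and steer axons, vessels and neural crest cells. In the embryonic heart they are known for septation of the outflow tract (*Sema3c*, *Plxnd1*, *Plxna2*, *Nrp1*), for the separation of arteries and veins (*Efnb2*, *Ephb4*) and for the endocardial cushions (*Efna1*, *Epha3*).

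The strongest gained peak of the top member of each family is shown as mm10 sequence, with the peak of *Ephb4* added because it encodes the receptor of ephrin B2. Sequences run 5′ to 3′ on the strand of the gene, and bases inside annotated untranslated regions were left out. Capitals mark 4 strings searched on both strands: the GC box GGGCGG, the GATA string AGATAA, the TEAD string GGAATG and the CTCF core AGGGGGC, of which the GC box and the CTCF core can overlap. They cover chr16:35541063-35541211 (*Sema5b*), chr8:8661243-8661388 (*Efnb2*), chr15:89180789-89180864 (*Plxnb2*), chr8:128357230-128357378 (*Nrp1*), chr16:21204537-21204685 (*Ephb3*) and chr5:137349951-137350099 (*Ephb4*).
Sema5b: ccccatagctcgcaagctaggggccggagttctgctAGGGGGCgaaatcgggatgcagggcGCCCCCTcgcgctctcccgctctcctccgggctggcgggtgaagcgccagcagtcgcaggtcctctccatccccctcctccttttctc
Efnb2: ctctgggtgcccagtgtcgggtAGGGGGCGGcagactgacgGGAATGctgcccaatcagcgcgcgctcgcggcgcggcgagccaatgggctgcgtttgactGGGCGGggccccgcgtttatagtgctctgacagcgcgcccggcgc
Plxnb2: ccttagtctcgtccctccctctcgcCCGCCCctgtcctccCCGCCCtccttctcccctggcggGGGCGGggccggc
Nrp1: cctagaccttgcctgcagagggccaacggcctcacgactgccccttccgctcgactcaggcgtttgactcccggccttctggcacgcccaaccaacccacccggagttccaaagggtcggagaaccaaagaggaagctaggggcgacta
Ephb3: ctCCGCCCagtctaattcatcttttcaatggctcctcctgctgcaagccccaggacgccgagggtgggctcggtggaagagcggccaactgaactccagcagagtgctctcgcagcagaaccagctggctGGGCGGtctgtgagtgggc
Ephb4: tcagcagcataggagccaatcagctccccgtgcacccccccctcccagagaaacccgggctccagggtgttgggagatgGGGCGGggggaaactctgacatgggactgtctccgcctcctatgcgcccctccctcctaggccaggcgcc
The *Sema5b* peak held 2 CTCF core strings on opposite strands, and the *Plxnb2* stretch held 3 GC boxes in its upstream part. The *Efnb2* sequence carried 2 GC boxes, 1 CTCF core string overlapping the first of them and 1 TEAD string. The *Ephb3* peak held 2 GC boxes, the *Ephb4* peak 1, and the *Nrp1* peak none of the 4 strings, which says only that these letters are not in this window.

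A gained peak lay within 3 kb of an annotated transcription start site (TSS) in 39 of the 53 genes, or 73.6% (interval 59.7% to 84.7%). The same held for 51.2% of all protein-coding genes (11236 of 21938). At least 2 gained peaks were found at 18 members (34.0%), against 11.8% of all protein-coding genes. Of the 39 genes, 21 had a single peak, 9 had 2, 8 had 3 and *Plxna1* had 4. The members had more annotated start sites than other genes (median 5 against 3), and its part in the count of genes with at least 2 peaks was not tested.

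**Figure D1:**
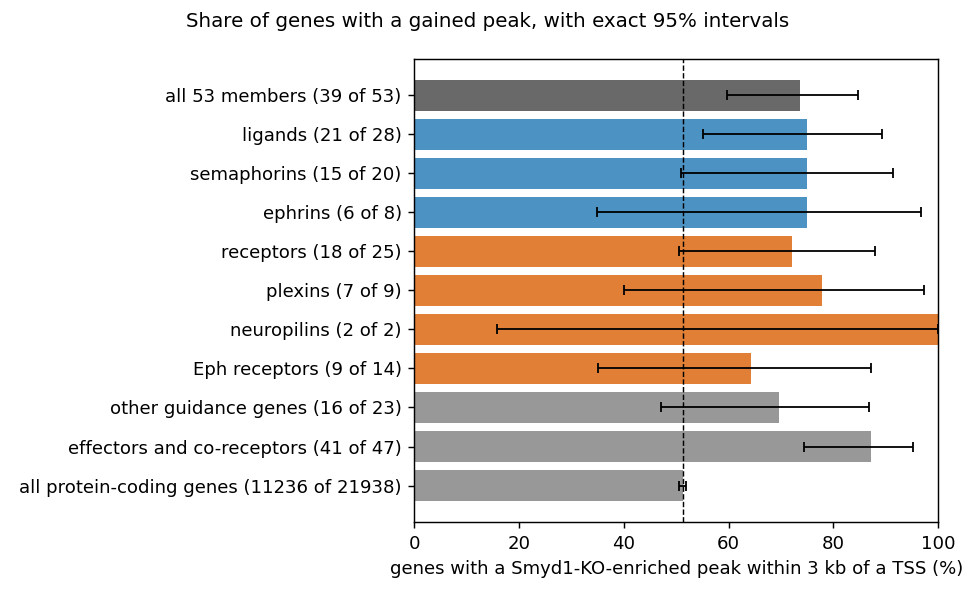
Bars show the percentage of genes in each group with a gained peak no further than 3 kb from a TSS, with exact 95% binomial intervals over genes; the dashed line is the share over all protein-coding genes, 51.2%. Ligand and receptor families lie close together at 75.0% and 72.0%, and the small families have wide intervals.

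Ligand and receptor genes had gained peaks at a similar rate. Of the ligand genes, 21 of 28 had one (75.0%, 55.1% to 89.3%), and of the receptor genes 18 of 25 (72.0%, 50.6% to 87.9%). The difference was 3.0 percentage points, with an interval from -19.9 to 26.1 points, so differences within that range cannot be told from none with so few genes. By family, the shares were 15 of 20 semaphorins (75.0%), 6 of 8 ephrins (75.0%), 7 of 9 plexins (77.8%), both neuropilins and 9 of 14 Eph receptors (64.3%). The interval for the Eph receptors (35.1% to 87.2%) includes the shares of the semaphorins, ephrins and plexins. Among subfamilies, all 4 *Plxna* genes and all 3 *Efnb* genes had a gained peak, against 1 of 3 *Plxnb*, 3 of 5 *Efna* and 5 of 9 *Epha* genes. *Ephb* genes stood at 4 of 5. The intervals of these subfamilies overlap widely (39.8% to 100.0% for *Plxna* and 0.84% to 90.6% for *Plxnb*, 29.2% to 100.0% for *Efnb* and 14.7% to 94.7% for *Efna*), and the *Efna* (60.0%) and *Epha* (55.6%) shares were near the background of 51.2%.

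The strongest peak per gene had a median score of 384.0 over the 39 members (quartiles 265.25 and 607.75), with 442.0 for ligand and 380.5 for receptor genes. Over all protein-coding genes with a gained peak the median was 460.5 (quartiles 292.0 and 693.0), and 17 of the 39 members lay above it. The members' median score was thus below that of genes at large, while their share with a peak was above it.

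**Figure D2:**
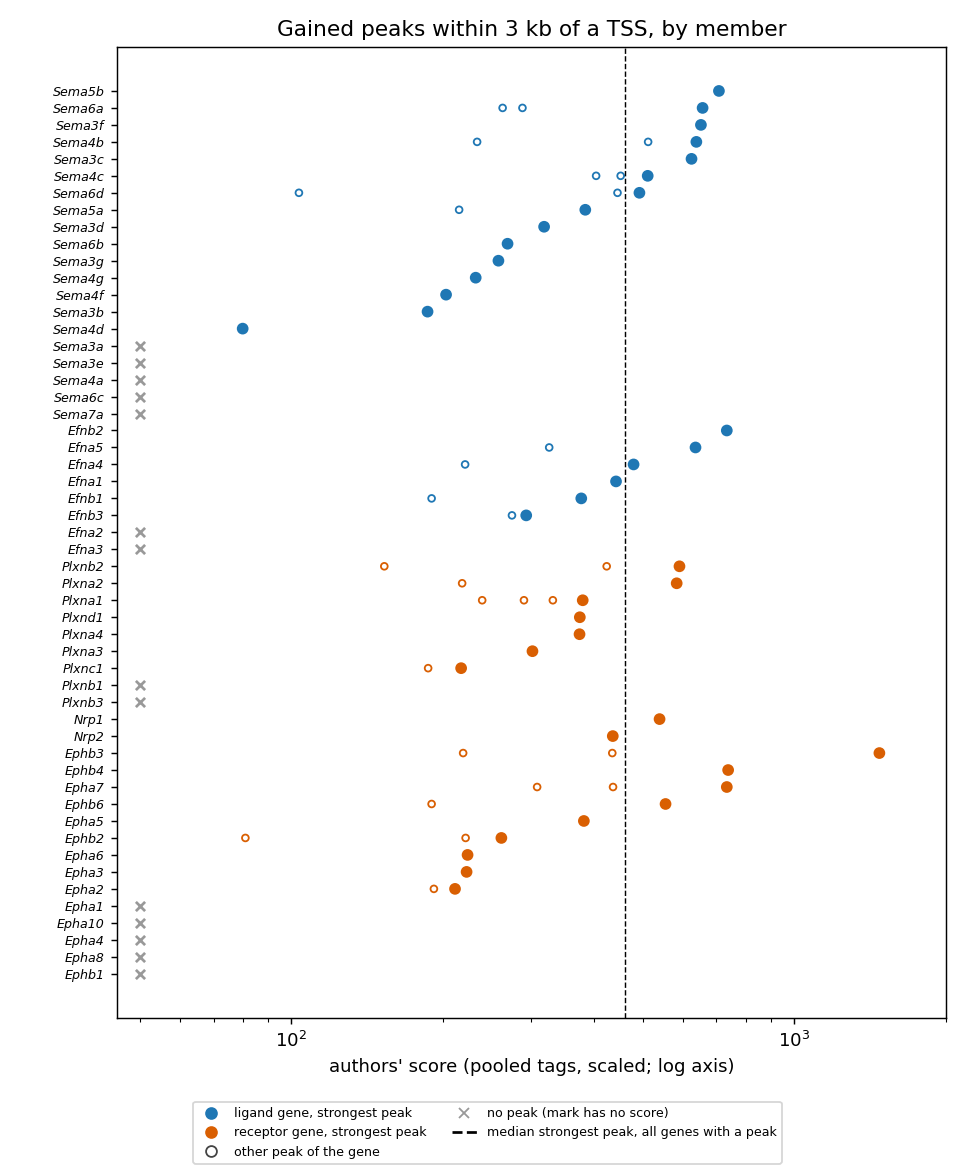
Each row is 1 of the 53 genes and each circle a gained peak within 3 kb of a TSS, placed by the deposited score on a log axis; filled circles are the strongest peak of a gene, crosses mark the 14 genes without such a peak and the dashed line is the median over all protein-coding genes with one (460.5). *Ephb3* stands apart at 1476, and *Sema4d* is lowest at 80.0.

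Among the membrane-bound semaphorins (*Sema4* to *Sema7*), 10 of 13 had a gained peak (76.9%, 46.2% to 95%) and 5 had at least 2 (38.5%), beside 51.2% and 11.8% of all protein-coding genes. The interval of the first share includes its background. *Sema5b*, which carries thrombospondin repeats and repels axons, had the highest semaphorin score, 708.0, in a peak that covered a start site and the first exon of a non-coding transcript. *Sema6a*, a transmembrane ligand of plexins A2 and A4, had a peak of 657.0 that ended 21 bp upstream of a TSS, and weaker peaks of 288.0 and 263.0. *Sema6d*, which binds plexin A1 in heart tube morphogenesis, had peaks of 492.0, 445.0 and 103.5. The weakest was at the 5′ end of the gene record, and the other pair sat together at start sites deep in it, with the strongest (chr2:124609894-124610042) 519999 bp from that end. *Sema4b* showed peaks of 638.5, 512.0 and 234.0, of which the strongest was 11671 bp inside the gene record, over an internal start site. *Sema4c*, a ligand of plexin B2, had 511.0, 451.5 and 403.5, of which the strongest covered a start site of *Sema4c* and also one of the gene *D430040D24Rik*, and that of 403.5 was nearer to the latter. The remaining members of the group were *Sema5a* (384.0 and 215.5), *Sema6b* (269.0), *Sema4g* (232.5), *Sema4f* (203.0) and *Sema4d* (80.0). The *Sema4d* peak (chr13:51716913-51717061) is the least secure call, being intronic, 2754 bp upstream of the nearest start site and the weakest of the 39.

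Of the secreted class 3 semaphorins, 5 of 7 had a gained peak (71.4%, 29.0% to 96.3%), an interval that includes the 51.2% of all protein-coding genes. None of the 7 had more than 1 peak, beside 11.8% of all protein-coding genes with at least 2. *Sema3f*, a repellent that acts through neuropilin 2, had a score of 652.0 over a start site (chr9:107709882-107710030). *Sema3c*, which attracts cardiac neural crest cells into the outflow tract, had 624.5 in the 5′ UTR (chr5:17574544-17574692). *Sema3d*, involved in patterning of the pulmonary veins, had 318.0 (chr5:12383354-12383502), *Sema3g* 258.0 and *Sema3b* 186.5. The *Sema3b* peak covered an internal start site 7008 bp from the 5′ end of the gene record.

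All 3 transmembrane (B-class) ephrin genes had gained peaks (interval 29.2% to 100.0%, which includes the 51.2% of all protein-coding genes). *Efnb2*, the marker of arterial endothelium, had 734.0 over its start site, the highest score of any ligand gene here. *Efnb1* had 377.0 at 24 bp upstream and 190.0 at 973 bp upstream, and *Efnb3* had 293.0 in its first kilobase and 274.5 over the start site. Among the GPI-anchored ephrins, *Efna5* had 636.0 (chr17:62883073-62883221), 1756 bp upstream, and 325.5 in an intron 151 bp downstream of its start. *Efna1*, expressed around the atrioventricular cushions, had 442.0 over a start site (chr3:89279603-89279751). *Efna4* had 479.0 (chr3:89337838-89337986) and 221.5, but the stronger peak was nearer to a start site of *4731419I09Rik* and the weaker to one of *Adam15*.

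Of the plexins, all 4 genes of the A class had gained peaks (interval 39.8% to 100.0%, which includes the 51.2% of all protein-coding genes). *Plxna2*, a semaphorin 3C receptor of the outflow tract, had 583.5 over a start site (chr1:194619711-194619859) and 218.5. *Plxna1*, a partner of both neuropilins, had 379.5 (chr6:89362486-89362634), 331.0, 290.0 and 239.5, of which that of 331.0 was nearer to *Gm44207*. *Plxna4* had 374.0 and *Plxna3* 301.5. *Plxnb2* scored highest of the family, with 591.0, 423.5 and 153.0. *Plxnd1*, the endothelial plexin whose loss causes outflow tract defects, had 374.5 (chr6:115994865-115995013) over a start site. *Plxnc1*, the receptor of semaphorin 7A, had 217.5 in coding sequence and 187.0 over the start.

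The neuropilins, co-receptors for class 3 semaphorins and for VEGF, differed in where the peak lay. *Nrp1* had 539.5 at 1226 bp upstream and none nearer, whereas *Nrp2* had 435.5 over its start site (chr1:62703208-62703356). They are the only neuropilin genes, and no comparison of the pair could be tested.

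The Eph receptors held the strongest peak of the whole set. *Ephb3*, a receptor of B-class ephrins, had a score of 1476, rank 72 among the 11236 protein-coding genes with a gained peak, and further peaks of 434.5 and 219.5. *Ephb4*, the venous receptor of ephrin B2, had 738.5 at 10 bp upstream, close to the 734.0 of *Efnb2*. *Epha7* had 734.0 at 38 bp upstream (chr4:28812945-28813093), 436.0 and 308.0, the last of them nearer to *Gm11915*. *Ephb6*, which lacks kinase activity, had 554.5 and 190.0. Lower scores were found at *Epha5* (381.5), *Ephb2* (261.5, 222.0 and 81.0), *Epha3* (223.0, chr16:63864096-63864244) and *Epha2* (211.5, chr4:141310443-141310591, and 192.0 over a start site). The peak of *Epha6* (224.0, chr16:60606347-60606495) lay 816 bp upstream and was nearer to a start site of *Gm9017*. The median strongest score was 646.5 for the 4 *Ephb* genes and 224.0 for the 5 *Epha* genes with a peak, a difference given as a description of single pooled values with no test.

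The 14 genes without a gained peak within 3 kb were *Sema3a*, *Sema3e*, *Sema4a*, *Sema6c*, *Sema7a*, *Efna2*, *Efna3*, *Plxnb1*, *Plxnb3*, *Epha1*, *Epha4*, *Epha8*, *Epha10* and *Ephb1*. Their nearest gained peak lay 4.09 to 32.0 kb from a start site (median 20.9 kb), and over 10 kb away in 11 of the 14. The nearest was at *Sema4a*, where a peak of 666.0 fell 4086 bp from a start site. *Efna2* came next with 266.0 at 6265 bp, then *Plxnb3* with 135.0 at 8671 bp. For *Plxnb1*, the receptor of semaphorin 4D, it was 12905 bp away (525.5), for *Efna3* 13265 bp (280.0) and for *Sema3a*, the best studied axon repellent, 14902 bp (46.0). *Epha10* followed at 18573 bp (240.5), *Epha4* at 23288 bp (49.0), *Epha1* at 23345 bp (1156), *Epha8* at 24602 bp (206.0) and *Sema6c* at 26414 bp (247.0). *Sema7a* at 29091 bp (365.5), *Ephb1* at 31038 bp (106.0) and *Sema3e* at 31986 bp (64.0) were the most distant. On the inner side of the 3 kb limit the nearest genes were *Sema4d* at 2754 bp and *Nrp1* at 1226 bp, so *Sema4d* was the only member within 1 kb of the limit.

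Ligands and receptors known to work together in the heart or vessels were next read as 14 pairs made from 17 genes. Both partners had a gained peak in 10 pairs: *Sema3c* with *Plxna2*, *Plxnd1*, *Nrp1* and *Nrp2*, *Sema3d* with *Nrp1* and *Plxnd1*, *Sema6d* with *Plxna1*, *Efnb2* with *Ephb4*, and *Efna1* with *Epha2* and *Epha3*. In 3 pairs the receptor alone had one: *Sema3a* with *Nrp1* and with *Plxna1*, and *Sema3e* with *Plxnd1*. In the pair of *Sema4d* and *Plxnb1* the ligand alone had one, through the weak and distant *Sema4d* peak. This call was lost with a 1 kb window, the score filter, protein-coding start sites or 1 start site per gene, and the pair then had a peak at neither gene. The 1 kb window also lost *Nrp1*, which left *Sema3a* and *Nrp1* both without a peak and *Sema3c* and *Sema3d* without this partner. The pairs share genes, since *Nrp1*, *Plxnd1* and *Sema3c* each enter several of them, so the count of pairs is not a count of independent cases. Over the 17 single genes, 14 had a gained peak, beside 73.6% of all 53 members and 51.2% of all protein-coding genes. The pairs were chosen with earlier results of these data known, and with most members called, most pairs have a peak at both partners.

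The 67 gained peaks within 3 kb of a member were 67 different regions, 34 at ligand and 33 at receptor genes. Of these, 25 covered a start site, 27 lay upstream of the nearest one and 15 downstream. The share covering a start site was 37.3%, against 48.7% of the 12520 gained peaks near all protein-coding genes, and 86.6% against 90.5% were within 1 kb. By annotation, 26 overlapped a 5′ UTR, 18 were in introns, 17 were upstream of the gene, 4 were in exons of non-coding transcripts and 2 in coding exons. At the level of genes, 25 of the 39 had a peak over a start site, and in 31 the strongest peak was within 100 bp of one. In 6 genes (*Epha2*, *Sema3b*, *Sema4b*, *Sema4d*, *Sema6b* and *Sema6d*) the strongest peak was more than 3 kb from the 5′ end of the gene record and nearest to an internal start site.

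**Figure D3:**
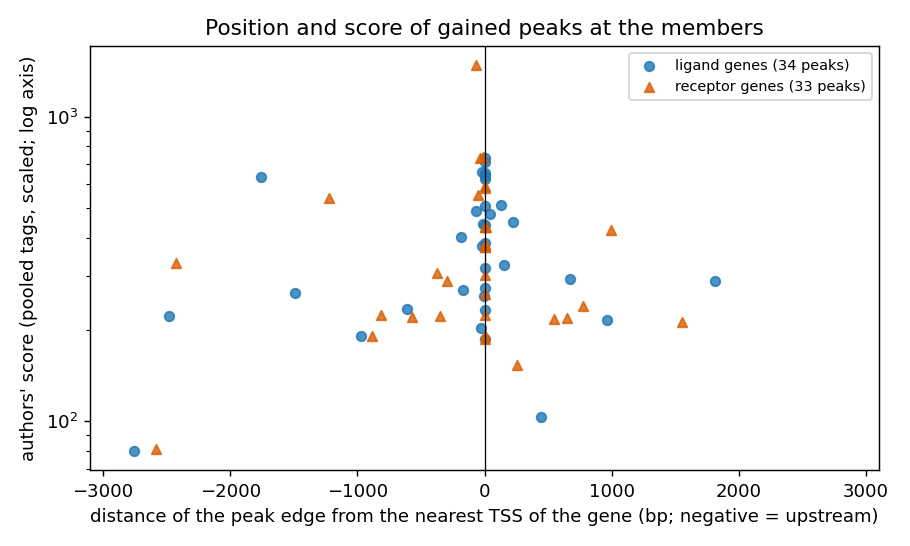
Each point is 1 of the 67 gained peaks within 3 kb of a member, at the distance of its edge from the nearest TSS of the gene (bp, negative upstream, 0 when the peak covers the TSS) and at its score on a log axis. Circles are ligand genes and triangles receptor genes; 58 peaks are within 1 kb and the peaks beyond it include *Efna5* at 1756 bp and *Nrp1* at 1226 bp upstream.

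The sequence strings were read over the same 67 regions. A GC box, the string bound by SP factors, was present in 53.7%, against 50.4% of gained peaks near all protein-coding genes and 29.1% of all gained peaks. The CTCF core was present in 19.4% (13 peaks at 11 genes, *Sema5b*, *Efnb2*, *Ephb3* and *Plxnb2* among them), against 11.6% and 9.09%. The TEAD string was found in 7.46%, at *Efnb2*, *Epha2*, *Plxna1* and *Plxnb2*, against 5.99% and 10.6%. The GATA string was found in 4.48%, at *Efnb3*, *Epha2* and *Epha3*, against 2.76% and 8.87%. Ligand and receptor peaks held a GC box in 19 of 34 and 17 of 33 cases and the CTCF core in 8 of 34 and 5 of 33. A match is a string and not a bound site.

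Promoter composition was compared because gained peaks near start sites were more frequent at CpG-rich promoters throughout the genome. The observed to expected CpG ratio from 250 bases before to 50 after the 5′ end of the gene record had a median of 0.666 over the members and 0.525 over all protein-coding genes, and the median GC share was 64.3% against 55.0%. Of the members with a ratio of 0.6 or more, 25 of 32 had a gained peak (78.1%), against 77.4% of all such genes. Below 0.6, 14 of 21 members had one (66.7%), against 30.4%. Of those 21, 12 have a further start site with a richer promoter. When a gene was classed by the highest ratio at any of its start sites, 34 of 44 CpG-rich members had a gained peak (77.3%), against 75.8% of all such genes. That left 9 members without a CpG-rich start site, of which *Efna4*, *Efnb1*, *Plxna3*, *Sema3b* and *Sema3g* had a gained peak (55.6%), against 19.1% of all such genes, and *Epha4*, *Plxnb3*, *Sema3e* and *Sema4a* did not.

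The number of annotated start sites moved with the share in the same way. With 1 start site, 3 of 5 members had a gained peak (60.0%), against 25.8% of all such genes. With 2 to 4 it was 14 of 21 (66.7%) against 44.7%, and with 5 or more it was 22 of 27 (81.5%) against 74.7%. Genes were then placed in 6 classes by both measures, and the share of all protein-coding genes was weighted to the class mix of the members. This gave 67.6%, or 35.8 genes, beside the 73.6% and 39 genes observed, which lies within the members' own interval. For ligands the weighted share was 64.4% against 75.0% observed, and for receptors 71.1% against 72.0%. The weighted background of 67.6% lay between the plain background of 51.2% and the members' 73.6%. The classes were chosen after seeing these values, and their part in the members' share was not tested.

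**Figure D4:**
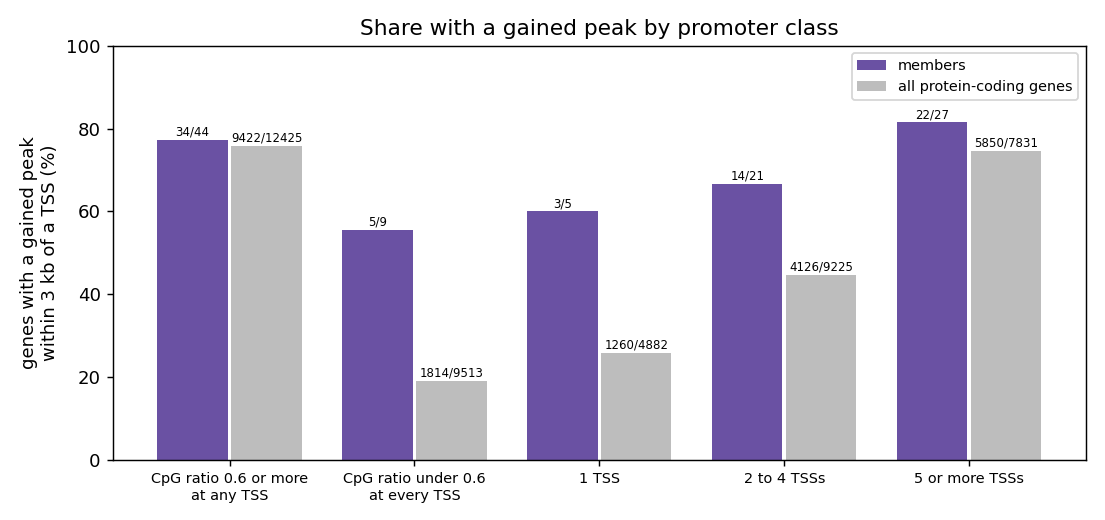
Bars show the percentage of genes with a gained peak within 3 kb of a TSS among the members (purple) and all protein-coding genes (grey), by the CpG ratio at their start sites and by the number of start sites; the counts above the bars are genes with a peak over genes in the class. The bars are level for CpG-rich genes, 77.3% against 75.8%, and furthest apart in classes with 9 and 5 members.

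Beyond 3 kb of a start site, 74 further gained peaks lay in 36 of the genes or within 10 kb of them. Of these, 48 were intronic, 15 downstream, 8 upstream, 2 in coding exons and 1 in a 3′ UTR. Their median score was 99.75 (37.0 to 1158), against 325.5 for peaks within 3 kb. With the peaks within 3 kb counted as well, the highest numbers were at *Sema6d* with 13, *Plxna2* with 8 and *Plxna4* with 8. All of them are long genes (577802, 198652 and 443925 bp). The strongest intronic one among these was a *Plxna4* peak of 753.0 (chr6:32479275-32479423), 108769 bp downstream of the start site. The highest scores beyond 3 kb were in flanking sequence nearer to other genes, such as 1158 beyond the end of *Sema4b*, near *Cib1*, and 1156 beyond the end of *Epha1*, near *Zyx*. No gained peak at all was found in *Epha10*, *Plxnb1*, *Sema6c* or *Sema7a* and 10 kb to either side. No share over all protein-coding genes is given for this wider window, so its counts of genes are a description only.

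**Figure D5:**
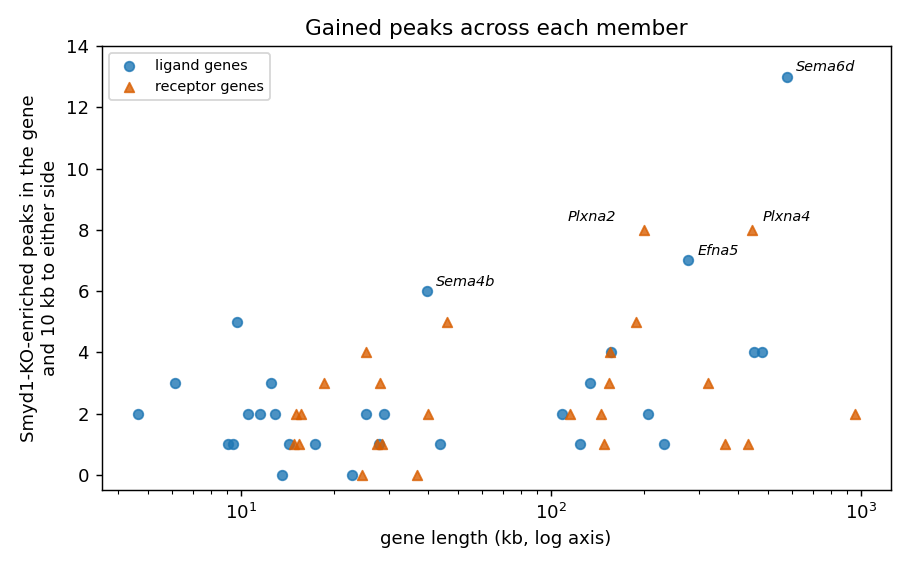
Each point is 1 of the 53 genes, placed by gene length (kb, log axis) and by the number of gained peaks in the gene and 10 kb to either side; circles are ligand and triangles receptor genes. *Sema6d* has the most with 13, and 4 genes have none.

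None of the 53 genes had a WT-enriched peak within 3 kb of a start site, within 10 kb, or in the gene body with 10 kb to either side. With 106 WT-enriched peaks in the whole list, only 5 of the 21938 protein-coding genes had one within 3 kb (0.0228%), so a count of 0 among the members is also what the background share gives.

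Genes acting with these receptors were read from a list of 47 co-receptors and effectors, and 41 of them had a gained peak within 3 kb (87.2%, 74.3% to 95.2%), against 51.2% of all protein-coding genes, with a median strongest score of 618.0. The 6 without were *Kdr* (VEGF receptor 2), *Nrcam* (a neuronal adhesion molecule), *Mical1* (an actin-oxidising enzyme), *Dpysl4*, *Arhgef15* and *Ngef*, of which *Ngef* encodes ephexin, an exchange factor activated by EphA receptors. Both their share and their median score were above those of the ligand and receptor genes. The interval of their share overlaps those of the ligands (55.1% to 89.3%) and the receptors (50.6% to 87.9%). The median strongest score over all protein-coding genes with a gained peak was 460.5. Many effectors serve other pathways in every cell, and the list was not chosen to match the members in promoter type.

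Markers of 4 cell types a whole heart can hold were read in the same way. A gained peak within 3 kb was found at 7 of 8 cardiomyocyte, 3 of 8 endothelial or endocardial, 3 of 6 epicardial or mesenchymal and 1 of 6 blood markers, beside 51.2% of all protein-coding genes. The part of cell mixture in the gained peaks at the semaphorin, plexin, ephrin and Eph genes was not tested.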

How the data were processed

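ATAC-seq libraries from WT and *Smyd1-KO* embryonic hearts (2 per genotype) had, per the labels and the study's methods, been aligned to mm10 with BWA-MEM and searched for peaks with HOMER 4.10.3, with annotation by ChIPSeeker 1.20.0. The headers of the study's differential peak output name 1 combined tag directory per genotype. The authors deposited, for each genotype, the peaks with at least 2-fold more tags than in the other, each with 1 signal value, a scaled tag count of the combined libraries. How that signal was scaled, and how duplicates, multimapping reads and the transposase offset were handled, is not given in the sources used here. The depth of each library is unknown from these lists, so no interval on a peak's signal could be given. Combined libraries hide any difference between replicates, and a list of differential peaks cannot tell an open unchanged promoter from a closed one.

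Members were taken by symbol from GENCODE M21, leaving out mitochondrial genes. The members, the gene lists and the pairs were chosen with earlier results of these data known, and the CpG and start site classes after seeing the present values. A gene was counted when the edge of a gained peak lay within 3 kb of the TSS of any of its transcripts, and a peak could count for several genes. Every member was named, and positions were given for the strongest peak of the 3 highest-scoring genes of each family, for members of the pairs and for genes whose peaks lay nearer to another gene; *Sema6a* is given without coordinates. Sequence came from the RefSeq GRCm38.p6 assembly, the same build as mm10. Shares have exact (Clopper-Pearson) 95% intervals, and the difference of shares a Newcombe interval. Alternatives were windows of 1 and 10 kb, a score filter, other sets of TSSs, assignment to the nearest gene and at least 2 peaks. The assignment step was tested on simulated data. One further marker list is not reported here. Python 3.11.15, pandas 2.3.3, numpy 2.4.6, scipy 1.17.1 and pyfaidx 0.9.0.4 were used.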

Additional observations from a re-analysis of the deposited data

How the results depend on the processing

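The share of members with a gained peak (73.6%) stayed inside its interval under windows of 1 and 10 kb, a score at or above the list median, start sites of protein-coding transcripts, 1 start site per gene and assignment to the nearest gene. In the same order, the share of all protein-coding genes moved from 51.2% to 48.1%, 59.6%, 45.4%, 49.6%, 47.0% and 45.6%, and that of the members was 69.8%, 79.2%, 71.7%, 71.7%, 67.9% and 69.8%. The narrow window lost *Nrp1* and *Sema4d*, the wide one added *Efna2*, *Plxnb3* and *Sema4a*, the score filter and the protein-coding start sites each lost *Sema4d*, 1 start site per gene lost *Sema3b*, *Sema4d* and *Sema6b*, and the nearest-gene rule lost *Efna4* and *Epha6*. Requiring at least 2 peaks left 34.0% of members, 32.1% of ligands and 36.0% of receptors, beside 11.8% of all protein-coding genes. The difference between ligands and receptors had no stable sign: 3.43 points at 1 kb and with the nearest gene, 6.14 at 10 kb, -0.571 with the score filter and with protein-coding start sites, -7.71 with 1 start site per gene and -3.86 with at least 2 peaks, all within the interval of -19.9 to 26.1. No paired analysis was possible because each genotype was deposited as 1 pooled list, and for the same reason no replicate could be left out. Depth could not be assessed per library, and weak peaks such as that of *Sema4d* have no error attached.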

Other observations

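Genes of the other guidance families, read from a list chosen with earlier results of these data known, were also described. Of 23 such genes, 16 had a gained peak within 3 kb of a start site (69.6%, 47.1% to 86.8%), against 51.2% of all protein-coding genes. All 4 netrin receptors of the UNC5 family (*Unc5a* to *Unc5d*) and the netrin receptors *Dcc* and *Neo1* had one, as did *Robo1*, *Robo2* and *Robo3* of the ROBO receptor family. *Robo4*, the endothelial member, and *Dscam* did not, so the receptors stood at 9 of 11 (81.8%, 48.2% to 97.7%). Of the ligands, *Slit2*, *Slit3*, *Ntn1*, *Ntn3* and *Ntn4* had a gained peak, and *Slit1*, *Ntn5*, *Ntng1*, *Ntng2* and *Draxin* did not, 5 of 10. The remaining genes, *Rgma* and *Rgmb*, ligands of neogenin, both had one. The median strongest score of the 16 genes was 337.0.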
